A study of Mus musculus with 4 samples.

Results

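Glycolysis and hypoxia-response genes were examined in fibroadipogenic progenitors (FAPs), the mesenchymal cells of skeletal muscle, from Bap1 conditional knockout (cKO) and wild-type (WT) mice. The set held 33 genes of the 20027 in the expression table and was taken as a list of gene names, put together with earlier results of these data known. The symbol matched for 32 of them, and Ca12 was found under its RefSeq synonym Car12. It comprised 23 genes of the glycolytic steps, from glucose uptake to lactate export, the 2 HIF alpha subunits Hif1a and Epas1, and 8 other targets of HIF. Bap1 encodes a nuclear deubiquitinase.

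The cKO libraries came from Prx1-Cre;Bap1f/f mice, in which Cre is driven in the limb mesenchyme and removes floxed Bap1 there, and not only in FAPs. The WT libraries carry titles naming Prx1-Cre alone, whereas the study describes floxed mice without Cre as its controls, so the genotype of these WT animals is unclear. All 4 libraries, 2 per group, were from male C57BL/6 mice, which the study places in the second week after birth. Hind limb muscle was sorted for cells that carry Sca1 and lack CD31, CD45, and Vcam1, and the sorted cells were used without culture. Nothing in the labels states how many animals each library holds, so the p-values measure the spread between these libraries.

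Glycolysis splits glucose into pyruvate in the cytosol, and cells with little oxygen reduce that pyruvate to lactate and export it. The hypoxia-inducible factors (HIFs) are dimers of an alpha subunit and ARNT, and in the presence of oxygen prolyl hydroxylases mark the alpha subunit for destruction. Stabilized HIF binds a short core sequence and induces most genes of glycolysis together with genes of vessel growth, mitophagy, and pH control. Growth plate chondrocytes, which work in poorly perfused tissue, are a known site of HIF activity in the limb.

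The HIF core is shown in the promoters of 3 genes of the glycolytic steps that were higher in cKO and of 2 classical HIF targets that did not pass the test, so that the letters can be read beside both outcomes. They were picked with these outcomes known, as examples. The sequences are the 250 bases upstream of the RefSeq start site (GRCm38.p6), read 5′ to 3′ on the gene's strand, and capitals mark ACGTG or GCGTG on either strand. They cover chr4:119108495-119108744 (plus strand) for Slc2a1, the basal glucose transporter GLUT1, chr7:46845554-46845803 (plus) for Ldha, lactate dehydrogenase A, and chrX:106186850-106187099 (plus) for Pgk1, phosphoglycerate kinase. For Bnip3, a mitophagy receptor, and Ankrd37, an ankyrin repeat protein, they cover chr7:138909507-138909756 and chr8:45999851-46000100, both on the minus strand.
Slc2a1: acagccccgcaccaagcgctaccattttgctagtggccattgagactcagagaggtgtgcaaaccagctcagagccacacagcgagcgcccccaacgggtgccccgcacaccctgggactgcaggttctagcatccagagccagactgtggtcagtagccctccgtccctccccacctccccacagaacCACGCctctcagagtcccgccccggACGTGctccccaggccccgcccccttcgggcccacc
Ldha: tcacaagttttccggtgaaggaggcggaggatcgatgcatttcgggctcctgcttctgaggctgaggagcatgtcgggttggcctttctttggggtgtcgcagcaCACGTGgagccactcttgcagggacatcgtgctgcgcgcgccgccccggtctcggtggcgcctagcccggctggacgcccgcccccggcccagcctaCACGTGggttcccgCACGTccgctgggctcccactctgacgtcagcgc
Pgk1: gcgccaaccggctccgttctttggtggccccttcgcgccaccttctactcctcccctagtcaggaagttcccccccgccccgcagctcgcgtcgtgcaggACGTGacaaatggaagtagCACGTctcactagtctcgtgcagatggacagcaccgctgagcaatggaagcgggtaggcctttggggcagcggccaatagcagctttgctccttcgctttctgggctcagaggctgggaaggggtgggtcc
Bnip3: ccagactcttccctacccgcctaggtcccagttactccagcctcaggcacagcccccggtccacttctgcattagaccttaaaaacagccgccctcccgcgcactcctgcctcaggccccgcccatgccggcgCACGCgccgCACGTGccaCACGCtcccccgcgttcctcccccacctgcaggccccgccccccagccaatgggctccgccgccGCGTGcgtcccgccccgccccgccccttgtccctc
Ankrd37: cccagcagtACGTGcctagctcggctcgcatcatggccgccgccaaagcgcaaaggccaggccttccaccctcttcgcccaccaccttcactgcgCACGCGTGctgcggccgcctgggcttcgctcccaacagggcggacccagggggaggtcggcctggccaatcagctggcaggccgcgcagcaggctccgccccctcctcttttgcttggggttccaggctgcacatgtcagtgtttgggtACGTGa
Slc2a1 and Pgk1 held 2 cores each, Ldha and Bnip3 held 5 each, and Ankrd37 held 4, where both strands are counted and overlapping matches count separately. At least 1 core was present in 17 of 22 promoters of the glycolytic steps (77.3%) and in 5 of 7 of the other HIF targets (71.4%), against 45.9% of the 19087 promoters of genes in the table. ACGTG by itself, the stronger form, was found in 40.9% and 57.1% of the same 2 groups, against 18.3% of promoters of genes in the table. No core was found in these 250 bases for Hk1, Gpi1, Tpi1, Pkm, and Car12, which were higher in cKO, nor for Eno2 and Vegfa, which did not pass. Sequence outside the 250 bases was not searched. A match is a description of the letters and not of binding, and the motif was not tested against the changes. Promoters of 30 of the 33 genes matched the RefSeq table, and Slc2a3, Epas1, and Ndrg1 had no entry.

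Expression was given as RPKM, reads scaled to the length of the transcript and to the library total, and was compared as log2(RPKM + 1), a scale that understates the change of low genes. Genes that reached 1 RPKM in no fewer than 2 libraries were tested with limma, and an adjusted p under 0.05 over all 11197 genes tested counts as passing. By this test 42.4% of all genes tested passed, 35.9% being higher in cKO and 6.48% lower, and the median gene stood 0.27 log2 units higher in cKO. Under median-ratio scaling, quantile normalization, or cyclic loess normalization, which center that median, 14.8% to 16.8% of genes were higher and 14.2% to 16.2% were lower. Changes are therefore also given above or below the median gene, and calls that rest on the deposited scaling are named.

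The libraries also differed in the levels of cell type markers. The chondrocyte list had 9 of 9 markers higher in cKO, with a summed level of 1849 to 2204 RPKM in cKO and 23.3 to 24.6 RPKM in WT, and the tenocyte list had 5 of 5 higher, with 924 to 1185 RPKM in cKO and 50.2 to 63.8 RPKM in WT. Of the smooth muscle and pericyte list 4 of 5 markers were higher, with 267 to 366 RPKM in cKO and 25.9 to 39.3 RPKM in WT. The FAP list was detected in both groups with 5 of 7 markers lower, at 5414 to 5484 RPKM in cKO and 7425 to 7537 RPKM in WT. This sum follows mainly Gsn, with 1518 and 1287 RPKM in cKO and 3500 and 3473 RPKM in WT. Dcn went the other way, with 2973 and 3120 RPKM in cKO and 2594 and 2637 RPKM in WT, and Lum overlapped between the groups. Myofiber markers fell for 5 of 6, at 20.0 to 20.3 RPKM in cKO and 54.7 to 73.3 RPKM in WT. Of the hypertrophic chondrocyte list 2 of 2 tested markers were higher, with 36.7 to 66.1 RPKM in cKO and 0.445 to 3.06 RPKM in WT and Ihh under 1 RPKM throughout, and of the Schwann list 3 of 3, with 17.8 to 30.5 RPKM in cKO and 9.14 to 12.2 RPKM in WT. Muscle stem cell markers had 1 of 2 tested higher, with 30.8 to 44.2 RPKM in cKO and 11.3 to 13.6 RPKM in WT and Pax7 and Myf5 under 1 RPKM. Most of that sum was Itga7, with 29.6 and 42.3 RPKM in cKO and 9.38 and 11.7 RPKM in WT. Myod1 overlapped, with 1.14 and 1.79 RPKM in cKO and 1.77 and 1.65 RPKM in WT. Endothelial markers had 1 of 4 tested higher, with 26.1 to 29.0 RPKM in cKO and 26.7 to 27.7 RPKM in WT, and erythroid markers 0 of 2, with 36.4 to 47.1 RPKM in cKO and 16.2 to 49.7 RPKM in WT. Hematopoietic markers had 1 of 2 tested higher and summed to 6.50 to 9.93 RPKM in cKO and 4.45 to 7.15 RPKM in WT, with Ptprc, Cd52, and Cd3e under 1 RPKM throughout. In such bulk samples a different share of a cell type cannot be told apart from a different amount of RNA per cell, and the part of these markers in the results that follow was not tested. Bap1 stood at 14.2 and 15.3 RPKM in cKO and 13.95 and 12.9 RPKM in WT. The difference did not pass (log2 fold change 0.13, limma adjusted p = 0.443), so no fall of Bap1 was seen in cKO. The paper, by contrast, reports Bap1 as disrupted in FAPs of its knockout mice, through loss of exons and a shifted reading frame. With 1 RPKM value per gene and library, the loss of exons was not tested, and the genotype was not checked.

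Among the 23 glycolytic steps, 15 of the 22 tested were higher in cKO, 0 were lower, and 7 did not pass. Over all genes tested the share that was higher was 35.9%. The median log2 fold change of the glycolytic steps was 0.56, which was 0.29 above the median gene. With the deposited scaling the rise ran through the pathway, from the glucose transporter Slc2a1 to the lactate exporter Slc16a3. In most steps with several isoforms it involved some isoforms and not others. Of the 15 calls, 6 were kept under all 3 other scalings, and that of Slc16a3 under none of them. Under those scalings the share of all genes tested that was higher was 14.8% to 16.8%. The summed level of the 23 genes was 2126 and 2441 RPKM in cKO libraries 1 and 2, against 1481 and 1388 RPKM in the WT libraries, a ratio of means of 1.59. By contrast, of the 8 other HIF targets 2 were higher, 1 was lower, and 5 did not pass, with a median log2 fold change of -0.03, which was 0.29 below the median gene. The higher ones included Car12, which passed the filter only through the cKO libraries. No test was made between the 2 groups of genes, whose medians differed by 0.58 log2 units. Of all 33 genes, 23 had both cKO libraries above both WT libraries and 2 had both below, where 56.8% and 15.5% of all genes tested did so. The plot of RPKM in each library shows all 33 genes by role.

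**Figure D1:**
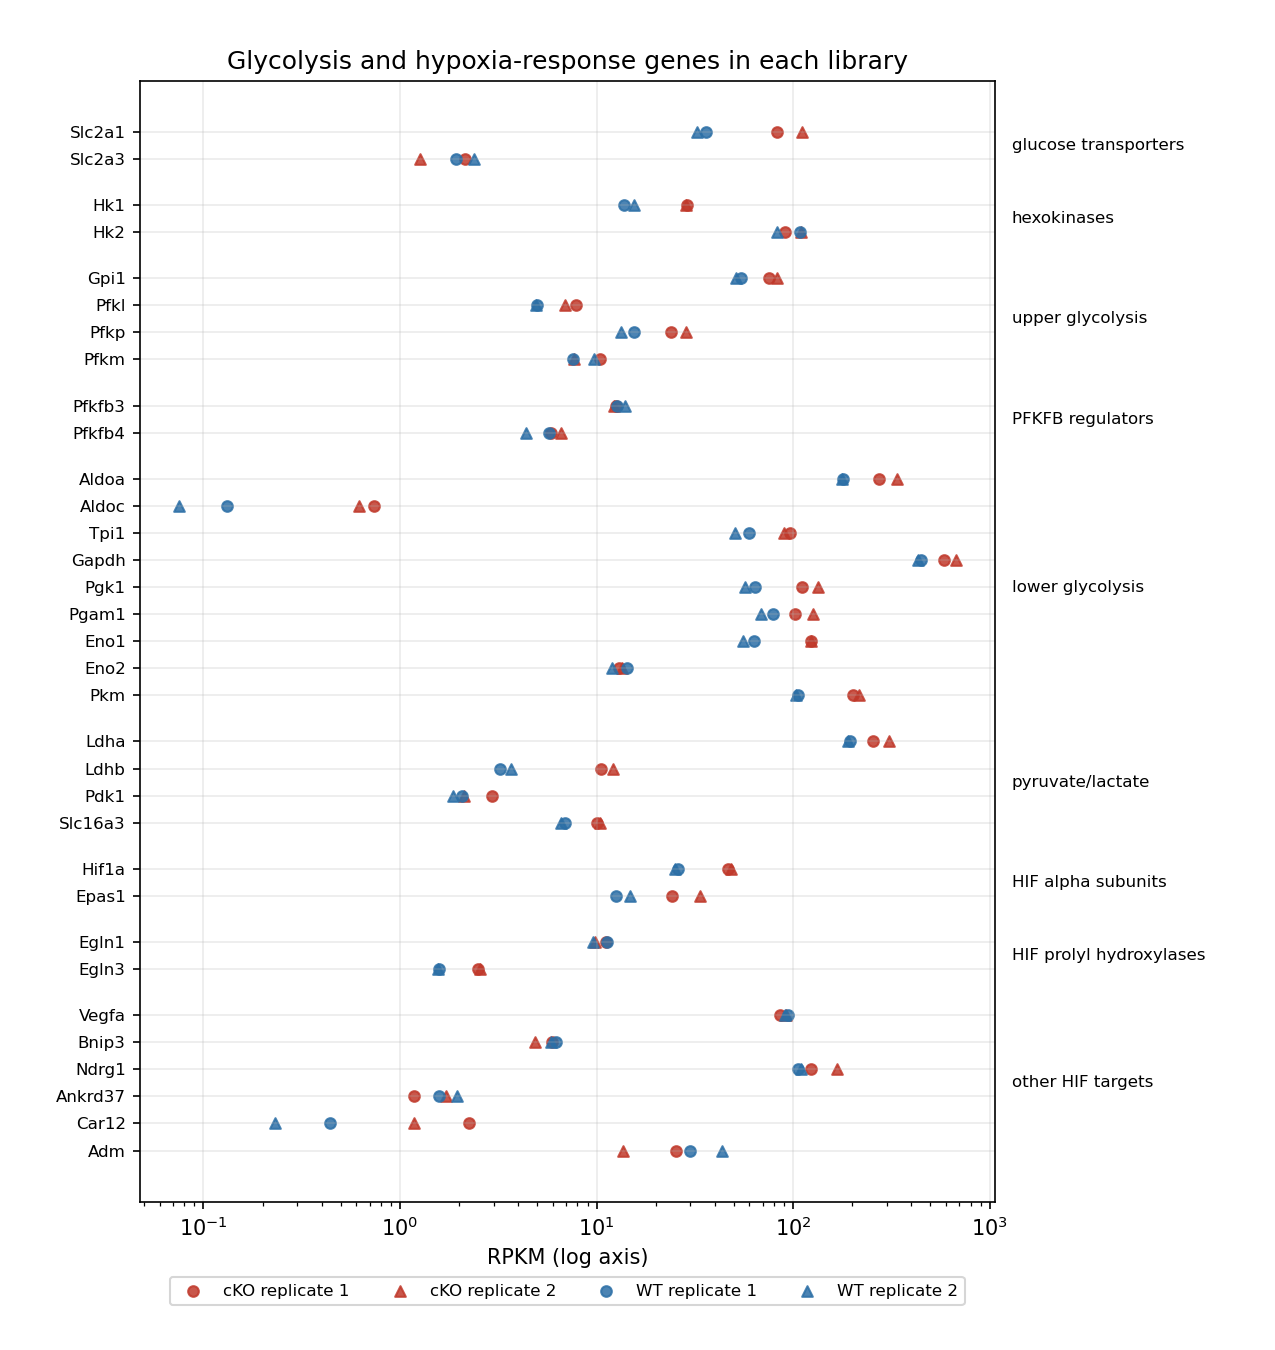
RPKM of each gene (log axis) in the 2 cKO libraries (red) and the 2 WT libraries (blue), grouped by role. The cKO points lie apart from and above the WT points for most genes of the glycolytic steps, such as Slc2a1 at 82.7 and 111 RPKM in cKO and 36.1 and 32.6 RPKM in WT, whereas Vegfa and Egln1 overlap.

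Glucose enters cells through facilitative transporters, of which Slc2a1 encodes the widespread basal form and Slc2a3 the high-affinity form GLUT3. Slc2a1 (NM_011400; chromosome 4, 119108711 to 119137983, plus strand, GRCm38) had 82.7 and 111 RPKM in cKO, against 36.1 and 32.6 RPKM in WT. Both cKO libraries stood above both WT libraries, and the log2 fold change was 1.46 (95% interval 1.08 to 1.83, limma adjusted p = 9.12e-04), or 1.19 above the median gene. Slc2a3 had 2.15 and 1.27 RPKM in cKO and 1.93 and 2.38 RPKM in WT. Its groups overlapped, and the 95% interval of its log2 fold change ran from -0.70 to 0.24.

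Hexokinases trap glucose by phosphorylating it, and Hk1 and Hk2 encode the mitochondria-bound isoforms, of which Hk2 is the better known HIF target. Hk1 had 28.7 and 28.6 RPKM in cKO, against 13.8 and 15.5 RPKM in WT, a log2 fold change of 0.92 (95% interval 0.63 to 1.21, limma adjusted p = 0.00190). Hk2 was the more abundant of the pair, at 91.3 and 109.9 RPKM in cKO and 107.9 and 83.3 RPKM in WT. The Hk2 groups overlapped and its 95% interval ran from -0.30 to 0.46.

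In the upper steps, Gpi1 encodes glucose-6-phosphate isomerase, which also acts outside cells as a cytokine, and Pfkl, Pfkp, and Pfkm encode the liver, platelet, and muscle forms of phosphofructokinase, the committed step. Pfkp had 23.8 and 28.7 RPKM in cKO, against 15.6 and 13.3 RPKM in WT, with a log2 fold change of 0.82 (95% interval 0.48 to 1.16, limma adjusted p = 0.00478) that did not pass with median-ratio scaling (adjusted p = 0.055). Gpi1 had 75.4 and 83.1 RPKM in cKO and 54.6 and 51.2 RPKM in WT (limma adjusted p = 0.00789), and Pfkl had 7.85 and 6.91 RPKM in cKO and 4.99 and 4.94 RPKM in WT (limma adjusted p = 0.0312). These 2 genes passed with the deposited scaling only, since neither passed under any of the 3 other scalings. Without WT replicate 2 the adjusted p of Gpi1 was 0.072, and that of Pfkl was 0.166 without WT replicate 1, 0.170 without WT replicate 2, and 0.072 without cKO replicate 1. Pfkm, the muscle form, had 10.5 and 7.69 RPKM in cKO and 7.61 and 9.69 RPKM in WT, and its groups overlapped.

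Pfkfb3 and Pfkfb4 encode bifunctional enzymes that set the level of fructose-2,6-bisphosphate, the activator of phosphofructokinase, and both are known HIF targets. Pfkfb3 had 12.6 and 12.3 RPKM in cKO and 12.7 and 13.97 RPKM in WT, with a 95% interval from -0.40 to 0.21. Pfkfb4 had 5.83 and 6.60 RPKM in cKO and 5.75 and 4.37 RPKM in WT, with an interval from -0.14 to 0.66. Neither regulator passed with the deposited scaling, whereas Pfkfb3 was lower with quantile (log2 fold change -0.43, adjusted p = 0.0319) and cyclic loess normalization (-0.44, adjusted p = 0.0323).

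The lower steps, from aldolase to pyruvate kinase, had 7 of 8 tested genes higher, where 35.9% of all genes tested were. Their median log2 fold change was 0.76, or 0.49 above the median gene. Eno1, the widespread enolase, had 122.7 and 123.8 RPKM in cKO, against 63.1 and 55.7 RPKM in WT, a log2 fold change of 1.04 (95% interval 0.76 to 1.32, limma adjusted p = 0.00106). Pgk1, which makes the first ATP of the pathway and whose promoter is shown above, had 110.4 and 134.5 RPKM in cKO, against 63.8 and 56.6 RPKM in WT, a log2 fold change of 1.01 (0.68 to 1.33, adjusted p = 0.00204). Pkm, pyruvate kinase, had 201.5 and 216.7 RPKM in cKO, against 105.3 and 103.1 RPKM in WT, a log2 fold change of 1.00 (0.72 to 1.27, adjusted p = 0.00114). In these 3 genes the ratio of the cKO mean to the WT mean was 2.07, 2.03, and 2.01, and the Pkm value covers both of its splice forms. The neuronal enolase Eno2 did not follow Eno1, at 13.0 and 13.5 RPKM in cKO and 14.3 and 11.9 RPKM in WT.

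Aldoa, the muscle-type aldolase, and Tpi1, triosephosphate isomerase, had log2 fold changes of 0.77 and 0.75 (limma adjusted p = 0.00515 and 0.00405). Aldoa had 274.8 and 337.1 RPKM in cKO and 180.4 and 176.9 RPKM in WT, and Tpi1 had 96.0 and 90.1 RPKM in cKO and 59.7 and 50.7 RPKM in WT. With median-ratio scaling neither passed (adjusted p = 0.098 and 0.071). Pgam1, phosphoglycerate mutase, had 102.0 and 126.2 RPKM in cKO and 79.4 and 68.9 RPKM in WT (limma adjusted p = 0.0136), a call that ended under all 3 other scalings and without WT replicate 2 (adjusted p = 0.098). Gapdh, the glyceraldehyde-3-phosphate dehydrogenase often used as a constant reference, was the most abundant of the 33 genes and was higher in cKO, with 586.8 and 671.6 RPKM in cKO against 446.5 and 430.9 RPKM in WT (log2 fold change 0.52, limma adjusted p = 0.0213). Its log2 fold change was 0.19 with median-ratio scaling (adjusted p = 0.451), and its adjusted p was 0.168 without WT replicate 1 and 0.215 without WT replicate 2. The annotation holds 77 near-identical copies of the Gapdh transcript, 4 each of Pgk1 and Bnip3, 3 each of Eno1 and Ldha, and 1 each of Gpi1, Tpi1, Pgam1, Pkm, and Ldhb, so these values are uncertain to the extent that reads were shared. Aldoc, the brain-type aldolase, had 0.742 and 0.620 RPKM in cKO, against 0.132 and 0.0752 RPKM in WT, and it stayed under the filter of 1 RPKM. In the fit with no filter its log2 fold change was 0.61 (limma adjusted p = 0.0150).

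Pyruvate is reduced to lactate by lactate dehydrogenase, a tetramer of A subunits (Ldha), known as a HIF target, and B subunits (Ldhb), which favor the reverse reaction. Ldhb (NM_008492), the less abundant subunit, had 10.5 and 12.1 RPKM in cKO, against 3.24 and 3.69 RPKM in WT. Its log2 fold change of 1.47 (95% interval 1.11 to 1.82, limma adjusted p = 7.62e-04) lay 1.20 above the median gene. Ldha had 253.6 and 305.9 RPKM in cKO, against 195.0 and 190.1 RPKM in WT, a log2 fold change of 0.53 (0.21 to 0.85, adjusted p = 0.0180). The Ldha call ended with median-ratio scaling (log2 fold change 0.21, adjusted p = 0.398), without WT replicate 1 (adjusted p = 0.104), and without WT replicate 2 (adjusted p = 0.132). Slc16a3, the lactate exporter MCT4, had 10.1 and 10.5 RPKM in cKO and 6.94 and 6.59 RPKM in WT (limma adjusted p = 0.0164), and did not pass under the 3 other scalings, without WT replicate 1 (adjusted p = 0.088), or without WT replicate 2 (adjusted p = 0.129). Pdk1, the kinase that keeps pyruvate out of the mitochondrial citrate cycle by inhibiting pyruvate dehydrogenase and a known HIF target, had 2.92 and 2.12 RPKM in cKO and 2.07 and 1.87 RPKM in WT and did not pass (95% interval -0.17 to 0.64).

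**Figure D2:**
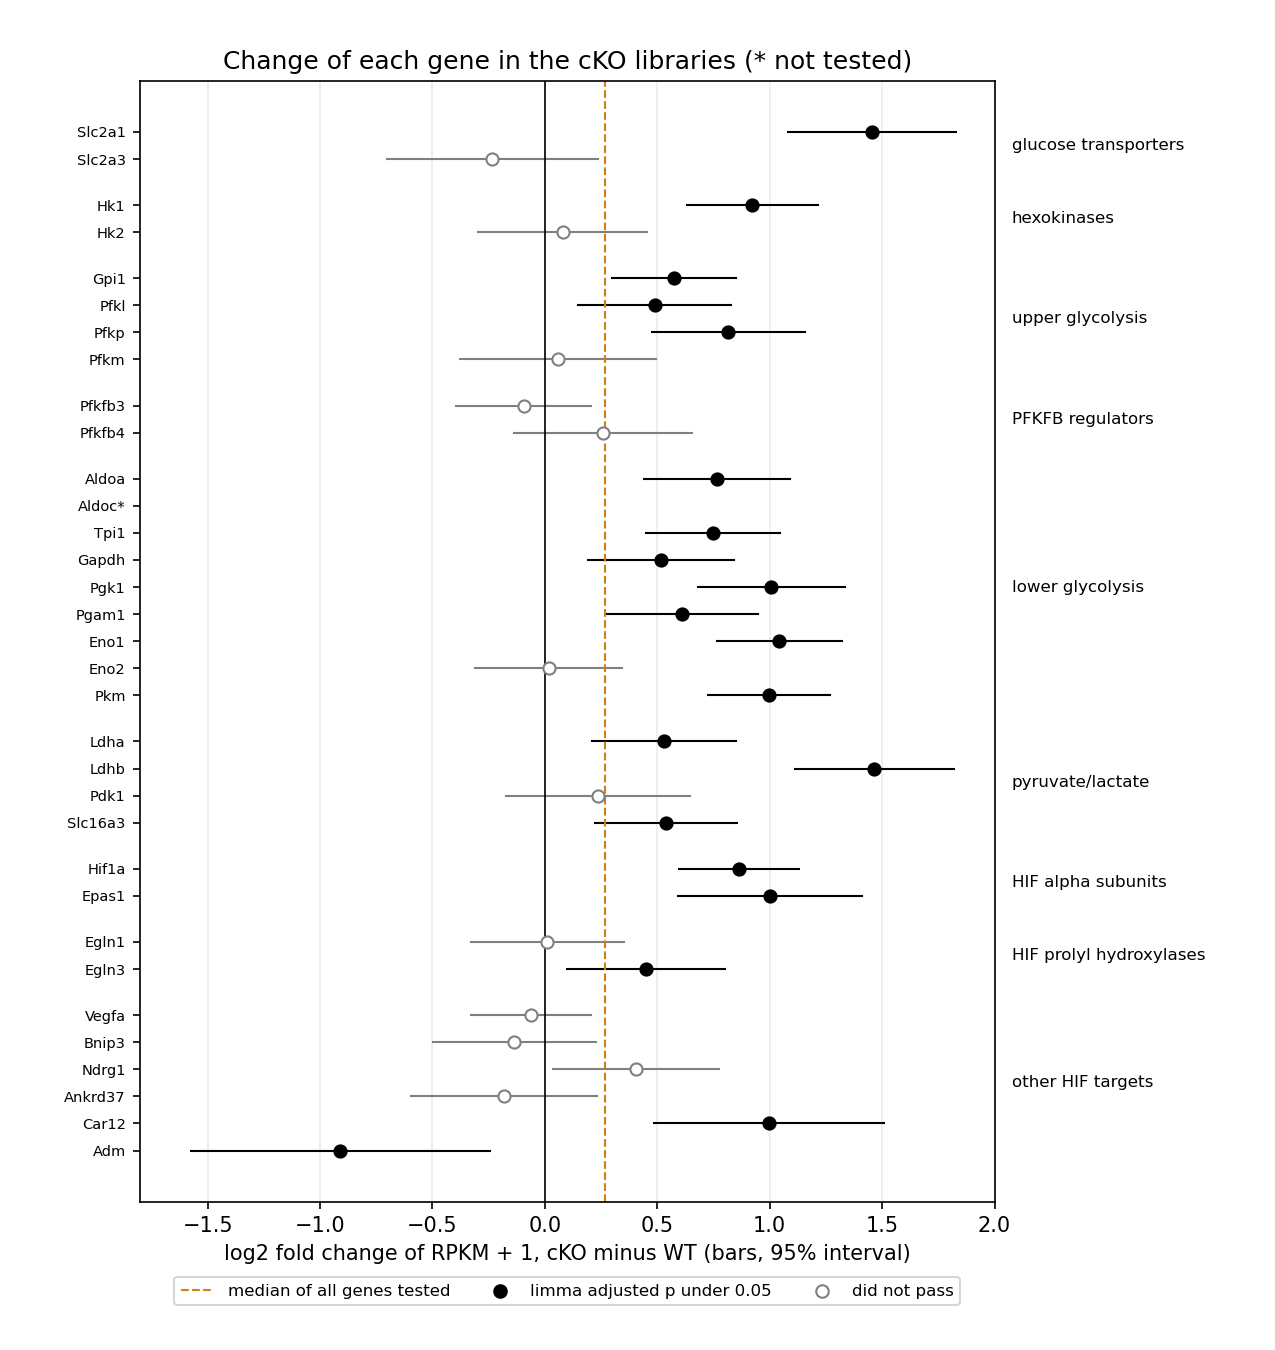
Log2 fold change of RPKM + 1, cKO minus WT, for each of the 32 tested genes with its 95% interval; filled points passed limma at an adjusted p under 0.05, and the dashed line is the median of all genes tested, 0.27. Filled points to the right of that line run through the glycolytic steps, and the other HIF targets lie on both sides of it, from Adm at -0.91 to Car12 at 1.00.

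Both HIF alpha subunits rose in cKO. Hif1a, the widespread alpha subunit, had 46.5 and 48.4 RPKM in cKO, against 26.1 and 25.2 RPKM in WT, a log2 fold change of 0.86 (95% interval 0.60 to 1.13, limma adjusted p = 0.00178). Epas1, which encodes HIF-2 alpha, had 24.1 and 33.4 RPKM in cKO, against 12.6 and 14.8 RPKM in WT, a log2 fold change of 1.00 (0.59 to 1.41, adjusted p = 0.00443). The groups did not overlap for either gene, and both stayed above the median gene, by 0.60 and 0.74. These are transcript levels, while HIF alpha is known to be controlled mainly through its stability as a protein.

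The prolyl hydroxylases that sense oxygen gave a mixed picture. Egln1, the main enzyme of the family, had 11.2 and 9.87 RPKM in cKO and 11.3 and 9.61 RPKM in WT, with a 95% interval from -0.33 to 0.35. Egln3, which is itself strongly induced by HIF, had 2.49 and 2.55 RPKM in cKO, against 1.59 and 1.56 RPKM in WT (log2 fold change 0.45, limma adjusted p = 0.0454). The Egln3 groups did not overlap, but the call was at the threshold. Its adjusted p was 0.061 without cKO replicate 1, 0.076 without cKO replicate 2, 0.237 without WT replicate 1, and 0.258 without WT replicate 2, and it did not pass under the 3 other scalings.

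Of the 6 remaining HIF targets, 1 was higher, 1 was lower, and 4 did not pass. Of all genes tested, 35.9% were higher and 6.48% lower. Vegfa, the angiogenic growth factor, had 85.9 and 91.6 RPKM in cKO and 94.7 and 90.5 RPKM in WT, with overlapping groups and a 95% interval from -0.33 to 0.21. Bnip3, with 5 HIF cores in the promoter shown above, had 5.96 and 4.87 RPKM in cKO and 6.19 and 5.86 RPKM in WT, with an interval from -0.50 to 0.23. Ankrd37, with 4 such cores, had 1.18 and 1.71 RPKM in cKO and 1.58 and 1.94 RPKM in WT, with an interval from -0.60 to 0.23. In these 3 genes the groups overlapped, and all 3 lay below the median gene, by 0.33, 0.40, and 0.45. Vegfa was called lower with quantile (log2 fold change -0.32, adjusted p = 0.0498) and cyclic loess normalization (-0.34, adjusted p = 0.0393).

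Ndrg1, a stress-induced gene of differentiation, had 123.4 and 166.3 RPKM in cKO and 106.2 and 109.9 RPKM in WT. The groups did not overlap, but the difference did not pass (log2 fold change 0.40, limma adjusted p = 0.0749) except without cKO replicate 1 (0.62, adjusted p = 0.00360). Car12, a membrane carbonic anhydrase that handles acid at the cell surface, had 2.24 and 1.18 RPKM in cKO, against 0.443 and 0.231 RPKM in WT, a log2 fold change of 1.00 (95% interval 0.49 to 1.51, limma adjusted p = 0.00998). Car12 passed the filter only through the cKO libraries, where it is high, and its log2 fold change was 1.37 with a pseudocount of 0.5 and 2.03 with 0.1. Adm, the vasodilator peptide adrenomedullin, was the only 1 of the 33 genes that was lower with the deposited scaling, with 25.5 and 13.6 RPKM in cKO against 29.8 and 43.4 RPKM in WT. Its log2 fold change of -0.91 (95% interval -1.58 to -0.24, limma adjusted p = 0.0367) kept its call under the 3 other scalings. It was -0.65 without WT replicate 2 (adjusted p = 0.066) and -0.48 without cKO replicate 2 (adjusted p = 0.086).

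Which genes passed depended in part on the scaling. Over all genes tested, 4016 were higher and 726 lower with the deposited scaling, against 1661 and 1593 with median-ratio scaling. How many of all called genes kept their call under all 3 other scalings was not counted. Of the 20 genes called among the 33, 10 kept their call under all 3 other scalings, which included 6 of the 15 glycolytic steps. Under every alternative fit at the same threshold that tested them, 9 kept it, namely Slc2a1, Hk1, Pgk1, Eno1, Pkm, Ldhb, Hif1a, Epas1, and Car12, except that Car12 was not tested with a filter at 5 RPKM, which it does not reach. Over these fits their highest adjusted p lay between 0.0142 for Eno1 and 0.0490 for Car12. Car12 passed the filter only through the cKO libraries, where it is high, so its place in these counts is no support. That of the less stable calls reached 0.451 for Gapdh, 0.398 for Ldha, 0.275 for Pfkl, 0.258 for Egln3, and 0.145 for Adm. With median-ratio scaling 6 glycolytic steps and 9 of all 33 genes were higher, where 14.8% of all genes tested were. The median of the glycolytic steps was then 0.25. The difference between that median and that of the other HIF targets was 0.58 with this scaling too, 0.73 with quantile, and 0.68 with cyclic loess normalization. Without WT replicate 2 the median of the glycolytic steps was 0.51, where that of all genes tested was 0.29.

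**Figure D3:**
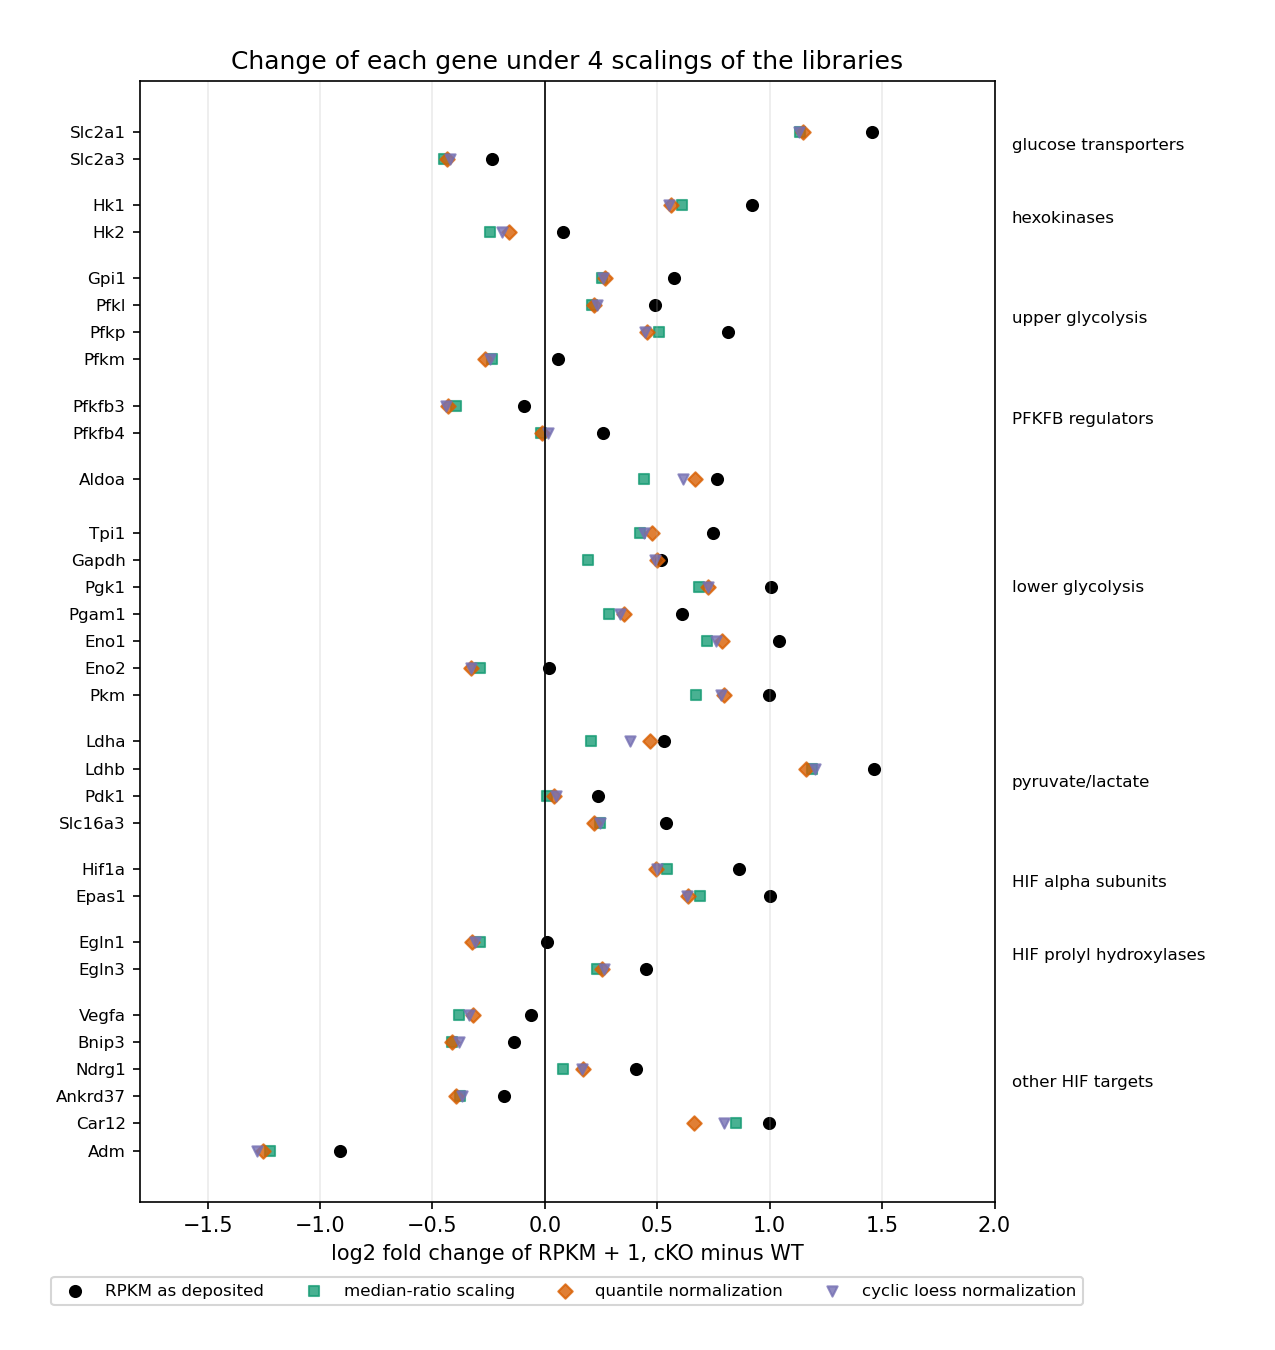
Log2 fold change of RPKM + 1, cKO minus WT, of each tested gene with the deposited scaling (black) and under median-ratio scaling, quantile normalization, and cyclic loess normalization (colored). The 3 alternatives shift most genes to the left, so that Hk2, Pfkm, Eno2, and Egln1 change sign while Slc2a1 and Ldhb stay at or above 1.13.

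The ratio of RPKM between paralogs within a library does not change when a library is multiplied by a constant, as in median-ratio scaling, whereas quantile and cyclic loess normalization can move it. In this way 10 pairs were compared on the deposited RPKM. With 2 against 2 libraries the exact two-sided permutation p cannot go below 0.333, so the ratios are given as descriptions. The ratio of Eno2 to Eno1 was 0.106 and 0.109 in cKO, against 0.227 and 0.214 in WT, a log2 difference of -1.04 on the RPKM scale. Ldha exceeded Ldhb 24.1-fold and 25.2-fold in cKO, against 60.1-fold and 51.6-fold in WT, a log2 difference of -1.18 on that scale. The ratio of Hk2 to Hk1 was 3.18 and 3.85 in cKO and 7.82 and 5.36 in WT, and that of Slc2a3 to Slc2a1 was 0.0260 and 0.0114 in cKO and 0.0533 and 0.0729 in WT. In these 4 pairs the cKO libraries lay on 1 side of both WT libraries, with Eno1, Ldhb, Hk1, and Slc2a1 the isoforms that gained.

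The muscle form Pfkm fell behind Pfkl, with ratios of 1.33 and 1.11 in cKO and 1.53 and 1.96 in WT, whereas the ratio of Pfkp to Pfkl overlapped between the groups. Egln3 gained on Egln1, at 0.223 and 0.258 in cKO and 0.141 and 0.162 in WT, and Pfkfb4 on Pfkfb3, at 0.464 and 0.537 in cKO and 0.451 and 0.313 in WT. The ratio of Epas1 to Hif1a was 0.519 and 0.691 in cKO and 0.484 and 0.589 in WT, so the 2 HIF alpha transcripts kept overlapping proportions. Aldoc stayed a trace beside Aldoa, at 0.00270 and 0.00184 in cKO and 0.000729 and 0.000425 in WT, and this ratio rests on an estimated 43.7 to 113.9 Aldoc reads in cKO and 10.4 to 11.4 in WT.

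**Figure D4:**
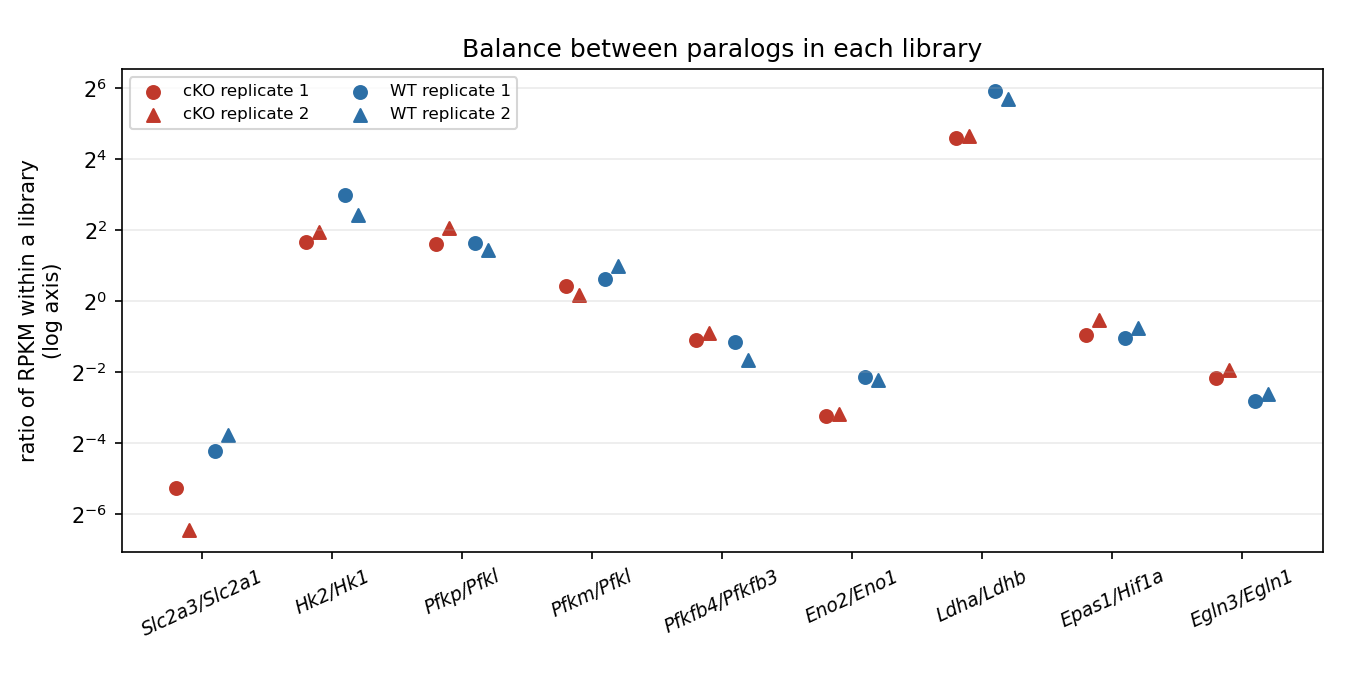
Ratio of RPKM between paralogs within each library (log axis), cKO libraries in red and WT libraries in blue. Slc2a3/Slc2a1, Hk2/Hk1, Eno2/Eno1, and Ldha/Ldhb are lower in both cKO libraries than in both WT libraries, while Epas1/Hif1a overlaps.

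Outside these genes, further members of the pathways were taken from 4 lists. The shares of all genes tested to be read beside their counts are 35.9% higher and 6.48% lower. Of 16 tested further glycolytic isoforms and regulators, 3 were higher and 1 was lower, with a median of 0.21, or 0.06 below the median gene. The higher ones were Pgam5, a mitochondrial phosphatase of the mutase family, with 13.3 and 13.4 RPKM in cKO and 5.59 and 4.64 RPKM in WT (limma adjusted p = 0.00118), Adpgk, an ADP-dependent glucokinase (0.60), and Slc2a4, the insulin-responsive transporter GLUT4 (0.56). Of these, Adpgk and Slc2a4 did not pass under any of the other scalings. Galm, which interconverts the anomers of galactose, was the lower one (log2 fold change -0.62). Of the 10 genes of the pyruvate dehydrogenase complex and its regulators, 3 were higher and 0 lower, with a median of 0.24, led by Dld, its dihydrolipoamide dehydrogenase subunit, with 24.8 and 26.2 RPKM in cKO and 13.2 and 13.7 RPKM in WT (adjusted p = 0.00203). Pdk3, which inhibits the complex, and Pdp1, the phosphatase that activates it, were both higher, by 0.74 and 0.64, but passed under none of the other scalings.

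Of 16 tested regulators of the HIF pathway, 8 were higher and 1 was lower, beside 35.9% and 6.48% of all genes tested, with a median of 0.46, or 0.19 above the median gene. The higher ones included Hif1an, the asparaginyl hydroxylase that blocks coactivator binding by HIF, with 5.65 and 5.90 RPKM in cKO and 3.26 and 3.11 RPKM in WT (limma adjusted p = 0.00869), and Siah1a, a ubiquitin ligase for the prolyl hydroxylases, with 10.99 and 11.7 RPKM in cKO and 6.65 and 6.56 RPKM in WT (adjusted p = 0.00611). Rbx1 and Elob, subunits of the ubiquitin ligase that degrades HIF alpha, were higher by 0.50 and 0.49. Hif1an passed under 1 of the 3 other scalings, cyclic loess (adjusted p = 0.0445), and Siah1a, Rbx1, and Elob under none. Hif3a passed the filter only through the WT libraries, where it is high. This alpha subunit, with forms that oppose the others, was lower, at 0.563 and 0.331 RPKM in cKO and 1.09 and 1.67 RPKM in WT (log2 fold change -0.71, adjusted p = 0.0188), under all scalings.

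Of 43 tested further HIF target genes, 13 were higher and 4 were lower, where 35.9% and 6.48% of all genes tested were, with a median of 0.11, which was 0.16 below the median gene. Angptl4, an inhibitor of lipoprotein lipase, had 105.8 and 111.6 RPKM in cKO, against 39.9 and 57.7 RPKM in WT (log2 fold change 1.16, limma adjusted p = 0.00270). Pgm1, a phosphoglucomutase, had 31.2 and 41.7 RPKM in cKO and 18.4 and 17.5 RPKM in WT, and Plod2, a lysyl hydroxylase of collagen, had 65.5 and 74.1 RPKM in cKO and 38.9 and 42.6 RPKM in WT. Plod2 did not pass with median-ratio scaling (adjusted p = 0.058). Fam162a, a mitochondrial protein, was higher by 0.77 with the deposited scaling and passed under each of the other scalings too. In the other direction, P4ha2, a collagen prolyl hydroxylase, had 45.5 and 44.8 RPKM in cKO, against 87.5 and 84.9 RPKM in WT (log2 fold change -0.92, adjusted p = 0.00129), and the collagen cross-linking enzyme Lox had 65.1 and 50.1 RPKM in cKO and 82.5 and 78.3 RPKM in WT (-0.49, adjusted p = 0.0327). Tgfb3, a growth factor, and Rora, a nuclear receptor, had log2 fold changes of -0.65 and -0.62.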

How the data were processed

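RNA-Seq was analyzed for 2 cKO and 2 WT libraries, grouped by their labels. The authors deposited RPKM per RefSeq gene in 1 table. TopHat2 (version 2.0.9), bedtools, edgeR, mm9, and mm10 appear in the submitters' processing notes without their roles. Annotation, counting rule, and use of strand are not given in the sources used here. Genes without reads carried a small value in place of 0 (1110 genes in all libraries). A step of 2.5 times that value was taken as 1 read, a setting with which all estimates of depth and reads scale. Over 362 olfactory receptor genes, depth was so estimated at 90.4 and 41.4 M reads in cKO and 46.5 and 89.1 M reads in WT. RPKM moves with the library total, so a few abundant genes shift all others. Exons on the opposite strand overlap Slc2a1, Hk1, Gpi1, Pfkp, Pfkm, Aldoa, Tpi1, Gapdh, Hif1a, Bnip3, Ndrg1, and Ankrd37, whose reads cannot be told apart without strand.

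Values were analyzed as log2(RPKM + 1) with limma (version 3.58.1, R 4.3.3; lmFit, eBayes with trend, no covariate, two-sided, Benjamini-Hochberg over 11197 genes). Positions and promoters came from GRCm38, which may not be the authors' build, and copies were transcripts with at least 95% identity over at least 300 bases. The 33 genes were all named, with up to 4 passing genes per direction from each pathway list by smallest p. The genes and lists were chosen with earlier results of these data known. Alternatives were pseudocounts, filters, scalings, eBayes settings, a replicate block, each library left out, the study's adjusted p limit (1e-05), and a minimum fold of 2. The pipeline was tested on simulated data. Figures were drawn with matplotlib (version 3.10.9).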

Additional observations from a re-analysis of the deposited data

How the results depend on the processing

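Counts of genes called depended on the scaling and the threshold. The study's limit was put here on limma adjusted p values from RPKM. The study does not name the test behind its own limit, so these counts are not those of the study. Of the glycolytic steps, 6 were higher with median-ratio scaling, 4 with a minimum fold of 2, and 0 at the study's limit on adjusted p, and 1 was lower with quantile and with cyclic loess normalization. Of the other HIF targets, 1 was higher with a pseudocount of 0.1, no filter, each of the 3 scalings, robust eBayes, or the replicate block, and 0 with a filter at 5 RPKM, the study's limit, or the minimum fold; 2 were lower with quantile and cyclic loess normalization, and 0 with no filter, robust eBayes, the study's limit, or the minimum fold. Of all 33 genes, 9 were higher with median-ratio scaling, 5 with the minimum fold, and 0 at the study's limit; 3 were lower with quantile and cyclic loess normalization, and 0 with no filter, robust eBayes, the study's limit, or the minimum fold. Of all genes tested, median-ratio, quantile, and cyclic loess scaling gave 1661, 1777, and 1885 higher and 1593, 1818, and 1710 lower, the study's limit 5 and 0, and the minimum fold 879 and 168.

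In the same order of scalings, the median log2 fold change was 0.25, 0.40, and 0.36 for the glycolytic steps and -0.33, -0.32, and -0.32 for the other HIF targets, and their difference was 0.73 with quantile and 0.68 with cyclic loess normalization. The sign turned for Hk2 (-0.25, -0.16, -0.19), Pfkm (-0.24, -0.26, -0.24), Eno2 (-0.29, -0.33, -0.33), and Egln1 (-0.29, -0.32, -0.31), and for Pfkfb4 with the first 2 (-0.017, -0.013). With no pseudocount the log2 ratio differences were 2.00 for Aldoc/Aldoa, -1.18 for Ldha/Ldhb, and 0.67 for Egln3/Egln1. With the pseudocount of 1 they were -0.16, -0.93, and 0.44, so the sign turned for Aldoc/Aldoa. The cause of these shifts was not tested.

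With each library left out, 9 to 15 glycolytic steps were higher, 1 to 2 other HIF targets higher and 0 to 1 lower, 12 to 18 of all 33 genes higher and 0 to 1 lower, and 2386 to 4044 of all genes higher and 390 to 1258 lower. The medians ran from 0.51 to 0.65 for the glycolytic steps and from -0.089 to 0.043 for the other HIF targets, and their difference from 0.47 to 0.67. The log2 fold change crossed 0 for Slc2a3 (-0.47 to 0.0028), Hk2 (-0.11 to 0.26), Pfkm (-0.14 to 0.26), Eno2 (-0.11 to 0.14), and Egln1 (-0.10 to 0.11).

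Same-numbered libraries tended to deviate in opposite directions (r = -0.30 over 11197 genes), so the numbers were not taken as pairs. With 2 libraries per group, cKO replicate 1 thus tended to deviate with WT replicate 2, at an estimated 90.4 and 89.1 M reads. The other libraries, cKO replicate 2 and WT replicate 1, were shallower, at 41.4 and 46.5 M reads. The part of depth in this was not tested. With the replicate block 3552 genes were higher and 731 lower, among them 13 glycolytic steps higher; with the pairing crossed, an alternative chosen after seeing the data, 4807 were higher and 1088 lower, with 15 glycolytic steps higher. Depth limits low genes most: Ankrd37 rested on an estimated 98.9 and 65.7 reads in cKO.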
